A study of Mus musculus with 9 samples.

Results

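The interferon-stimulated genes described here are 41 mouse genes, chosen by symbol, that cells switch on in response to interferon. Probes were assigned to them through the RefSeq transcript named for each probe on the array. Of the 41 genes 39 had a probe and all 39 were tested, out of 16843 genes tested in all. Mx1 and Mx2 were not matched to a probe and are not analysed here. Of the 39 genes 16 had more than 1 probe, and the probe brightest on average over the 9 arrays stands for its gene.

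RNA from whole lungs was measured on one-colour Agilent expression arrays, 1 array per mouse and 3 mice per group. The 9-month cre lungs came from SPC-cre TRF1flox/flox mice treated with tamoxifen for 9 months and aged 11 months. The 3-month cre lungs came from mice of that genotype treated for 3 months and aged 5 months. The control lungs came from cre-free TRF1flox/flox littermates treated for 9 months and aged 11 months. All 3 groups carried the floxed alleles and all received tamoxifen, at 250 mg per kg of body weight per week from 8 weeks of age. SPC is surfactant protein C, whose promoter is active in alveolar type 2 cells, so that deletion of TRF1 (gene symbol Terf1), a telomere-binding protein, is directed to a minority of the cells of a lung while every cell type contributes to the RNA.

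Interferons are secreted proteins that cells release on sensing foreign or misplaced nucleic acid. Type I and type III interferons act through receptors that activate a factor complex holding STAT2 and IRF9, which binds the interferon-stimulated response element (ISRE), whereas interferon gamma, made mainly by T cells and natural killer (NK) cells, acts through its own receptor on promoters that hold the gamma-activated sequence (GAS). The target genes encode nucleic acid sensors, antiviral enzymes, antigen-processing proteins and further interferon regulators, and in the lung they are known best from the response to respiratory viruses.

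Promoter sequence, from 250 bases before to 50 bases after the transcription start, was present in the RefSeq table (GRCm38.p6) for 31 of the 41 genes. Oas2, Dhx58, Mx1, Mx2, Usp18, Zbp1, Rtp4, Parp9, Parp14 and Iigp1 are not in that table. The ISRE core, GAAA followed by any 2 bases and GAAA again, searched on both strands with overlapping matches counted, was found in 16 of these 31 genes (51.6%), against 3.99% of all 27025 genes in the table and 3.44% of its 32851 promoter windows. The GAS core, TTC followed by any 3 bases and GAA, searched in the same way on both strands, was found in 9 of the 31 genes (29%), against 9.55% of all genes. A match describes letters in this window and is not a measured binding site. Because Oas1a and Irf7 rose in the comparisons below, their whole promoter windows are shown, with ISRE matches in capitals. The Oas1a window lies at chr5:120907476-120907775 on the minus strand and holds 2 overlapping ISRE matches and 1 GAS match. The Irf7 window lies at chr7:141266375-141266674 on the minus strand and holds neither motif.
Oas1a: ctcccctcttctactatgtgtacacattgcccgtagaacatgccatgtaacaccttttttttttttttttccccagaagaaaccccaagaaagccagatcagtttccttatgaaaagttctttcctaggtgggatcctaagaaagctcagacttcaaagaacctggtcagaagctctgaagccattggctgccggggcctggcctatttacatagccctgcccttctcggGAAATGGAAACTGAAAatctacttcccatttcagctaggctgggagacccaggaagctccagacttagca
Irf7: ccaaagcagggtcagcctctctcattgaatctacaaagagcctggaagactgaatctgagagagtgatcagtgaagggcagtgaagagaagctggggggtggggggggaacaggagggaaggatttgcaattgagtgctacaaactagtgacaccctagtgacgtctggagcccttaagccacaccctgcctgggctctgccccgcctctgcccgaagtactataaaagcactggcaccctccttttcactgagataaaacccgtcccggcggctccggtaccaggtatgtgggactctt

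Shorter stretches show the letters around the ISRE match in members of different roles, none of which was called in the fit of all 9 arrays, again with the matched bases in capitals. The Oas1g stretch (chr5:120887604-120887643, minus strand) is identical to the same bases of Oas1a. With the windows set side by side at a fixed shift of 2 bases, 69.5% of 298 promoter bases were identical. No gaps were allowed, so inserted or missing bases lower that figure. The Oas3 stretch lies at chr5:120777713-120777746 (minus strand), the Isg15 stretch, with 3 overlapping matches, at chr4:156200863-156200908 (minus strand), the Gbp2 stretch at chr3:142620592-142620625 (plus strand), the Igtp stretch at chr11:58199510-58199543 (plus strand) and the Irgm1 stretch at chr11:48871423-48871462 (minus strand). All 4 GTPase genes with a promoter in the table held the motif.
Oas1g: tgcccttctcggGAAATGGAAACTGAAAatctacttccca
Oas3: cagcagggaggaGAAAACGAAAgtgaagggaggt
Isg15: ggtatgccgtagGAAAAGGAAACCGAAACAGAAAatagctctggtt
Gbp2: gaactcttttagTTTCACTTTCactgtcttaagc
Igtp: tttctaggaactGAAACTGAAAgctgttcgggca
Irgm1: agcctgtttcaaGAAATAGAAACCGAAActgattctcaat

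Several features of the arrays bear on every value below. The 75th percentile of signal intensity ranged from 958 to 1430 over the 9 arrays, the share of probes well above background from 62.7% to 72.4%, and 0 spots were saturated. The targeted gene Terf1 differed from controls by -0.52 ± 0.19 (SE) on the log2 scale at 9 months and by -0.55 ± 0.19 at 3 months, and neither difference was called (limma, Benjamini-Hochberg adjusted p = 0.131 and 0.190). The array headers name 2 slides, of which slide 1 held every control together with replicate 1 of the 3-month cre group, and slide 2 held the remaining 5 arrays. Animal sex, read from Xist and Y-linked probes, was male for all 3 controls and mixed in both cre groups. All 8 lung epithelial markers, among them Sftpc, were well above background on all 9 arrays. One array stood apart for these genes: 9-month cre replicate 3 had the highest value of all 9 arrays for 26 of the 39 interferon-stimulated genes, where it was highest for 17% of all genes. Results are therefore given with and without it.

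Levels are log2 processed signal minus the log2 75th percentile of the same array, so that a difference of 1 is a factor of 2. The words rose, fell and called are kept for a Benjamini-Hochberg adjusted p under 0.05, taken over the 16843 genes in the limma fit of all 9 arrays.

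**Figure D1:**
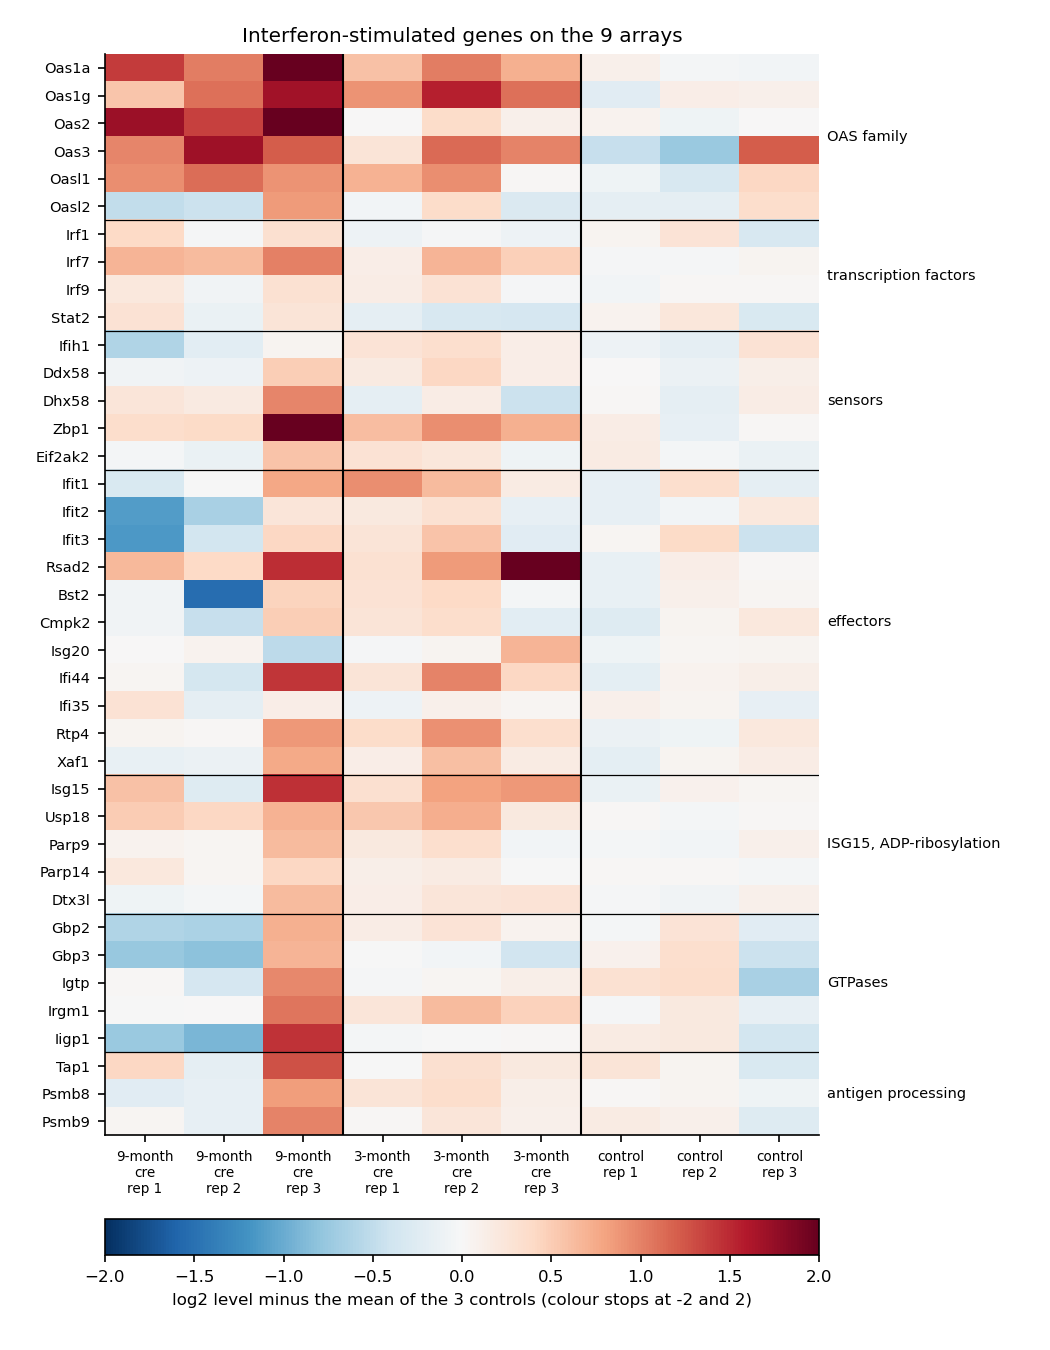
Log2 level of each of the 39 interferon-stimulated genes on each of the 9 arrays, minus the mean of the 3 controls, with the genes grouped by role. The upper rows (Oas1a to Oasl1) are red in all 9-month cre arrays, while most other rows are red in 9-month cre replicate 3 and pale or blue in replicates 1 and 2.

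In lungs after 9 months of tamoxifen, 3 of the 39 interferon-stimulated genes rose relative to controls and 0 fell. The 3 were Oas2 and Oas1a, which encode enzymes that make 2′-5′-linked oligoadenylates on binding double-stranded RNA and so activate the nuclease RNase L, and Irf7, the transcription factor that amplifies type I interferon production. Of all genes tested 6.45% were called in this comparison, 614 higher (3.65%) and 473 lower (2.81%), a split of 555 higher and 655 lower with the authors' deposited normalised values, so 3 of 39 was close to the share among all genes. At an unadjusted p under 0.05, 8 of the 39 were higher and 0 lower, against 14.8% and 12.5% of all genes. The median log2 fold change was 0.22, beside 0.024 over all genes tested, and 29 of the 39 values were above 0, as were 52.8% over all genes. In 10 of the 39 genes every 9-month cre array was above every control array, against 17.5% of all genes, and in 0 was every 9-month cre array below (15% of all genes). Oas3 and Oas1g are among the 8, and Oas1g is among the 10. Both passed the dim-probe filter only through the cre groups, where they are brighter.

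Among the 6 members of the OAS family, Oas2 (chr5:120730333-120749886) had log2 levels of 3.28, 2.93 and 3.64 in 9-month cre lungs, 1.58, 1.94 and 1.68 in the 3-month cre group, and 1.65, 1.49 and 1.58 in controls. The 9-month cre arrays lay above all 6 others without overlap, while the 3-month cre and control arrays overlapped. Oas2 thus rose by 1.71 ± 0.18 against controls, a fold of 3.27 (adjusted p = 0.00897), and by 1.55 ± 0.18 against 3-month cre lungs (adjusted p = 0.0179).

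Oas1a (chr5:120896256-120907544), a neighbour of Oas2 on the same chromosome, had levels of 2.50, 2.13 and 3.13 in 9-month cre lungs, 1.69, 2.13 and 1.81 in the 3-month cre group, and 1.19, 1.06 and 1.05 in controls. Both cre groups lay above the controls and overlapped each other. The change against controls was 1.49 ± 0.24 at 9 months (fold 2.80, adjusted p = 0.0182) and 0.78 ± 0.24 at 3 months, which was not called (adjusted p = 0.153).

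Of the other OAS members, Oas3, whose product also synthesises oligoadenylates, had the largest uncalled change. It had levels of -4.00, -3.29 and -3.77 in 9-month cre lungs, -4.73, -3.86 and -3.99 in the 3-month cre group, and -5.45, -5.73 and -3.78 in controls, where 2 of the 3 arrays were not well above background. The third control lay within the 9-month cre range, and the difference of 1.30 ± 0.49 was not called (adjusted p = 0.134). Without control replicate 3 it was 1.90 and was called (adjusted p = 0.0344). The 2 controls then left were those not well above background, so that value is set against background signal and is not taken as a rise. Oas3 was kept only through the cre groups, where it is brighter. Oas1g, a close relative of Oas1a, lay above the controls in both cre groups, with differences of 1.11 ± 0.29 at 9 months (adjusted p = 0.0561) and, after 3 months, 1.19 ± 0.29 (adjusted p = 0.109). For Oas1g 1 control array was not well above background, so it too was kept only through the cre groups.

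Oasl1, an OAS-like protein without synthetase activity, stood at 0.98 ± 0.26 against controls (adjusted p = 0.0593), and a dimmer probe for the same gene was at 1.25 ± 0.24 (adjusted p = 0.0350 over all probes tested). Oasl2, an OAS-like protein that keeps synthetase activity, stood at -0.02 ± 0.36. The median of the 6 members minus the control mean was 0.96, 1.11 and 1.45 on the 9-month cre arrays and 0.43, 0.98 and 0.41 on the 3-month cre arrays. Oas3 and Oas1g are among the 6, so these medians may partly follow from the dim-probe filter. Oas1 genes share much of their sequence and probe positions are not given in the sources used here, so signal from Oas1a, Oas1g and their neighbours cannot be assigned with certainty.

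**Figure D2:**
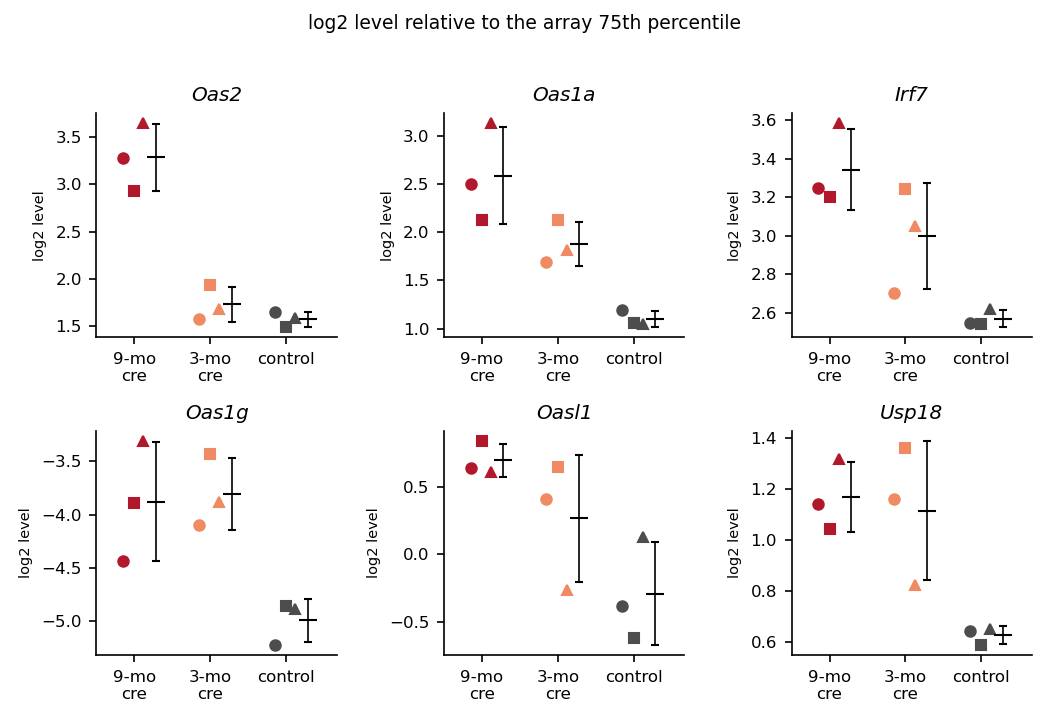
Log2 level relative to the array 75th percentile for 6 genes, in 9-month cre, 3-month cre and control lungs from left to right. Circles, squares and triangles are replicates 1, 2 and 3, and the bars show mean and SD (n = 3). For Oas2 the 9-month cre arrays (2.93 to 3.64) sit above both other groups, and for Oas1a, Irf7, Oas1g and Usp18 both cre groups sit above the controls.

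Among the 4 transcription factors, Irf7 (chr7:141263183-141266499) had levels of 3.25, 3.20 and 3.58 in 9-month cre lungs, 2.70, 3.24 and 3.05 in the 3-month cre group, and 2.55, 2.54 and 2.62 in controls. The controls lay below every cre array, and the cre groups overlapped each other. Irf7 rose by 0.77 ± 0.16 at 9 months (fold 1.71, adjusted p = 0.0332), and at 3 months the difference of 0.43 ± 0.16 was not called (adjusted p = 0.210). A dimmer Irf7 probe was at 0.32 ± 0.25 at 9 months and 0.88 ± 0.25 at 3 months, neither called.

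Irf1, a factor that responds mainly to interferon gamma, had the largest uncalled value of the transcription factors at 9 months. Its levels were 5.15, 4.73 and 5.06 in 9-month cre lungs, 4.65, 4.72 and 4.64 in the 3-month cre group, and 4.81, 5.02 and 4.42 in controls, with overlap between 9-month cre and control arrays and a difference of 0.23 ± 0.17 (adjusted p = 0.410). A dimmer Irf1 probe was at -0.09 ± 0.28 and was not called. Stat2 and Irf9, which belong to the ISRE-binding complex, were each at 0.14 (adjusted p = 0.627 and 0.496).

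Of the 5 nucleic acid sensors none was called, and 1 was higher at an unadjusted p under 0.05. That gene was Zbp1, a sensor of Z-form nucleic acid that can trigger cell death, with levels of -0.87, -0.84 and 0.80 in 9-month cre lungs, -0.60, -0.30 and -0.51 in the 3-month cre group, and -1.08, -1.39 and -1.20 in controls. All cre arrays were above all controls, and 9-month cre replicate 3 was far above its group. The difference was 0.92 ± 0.40 at 9 months (adjusted p = 0.182) and, after 3 months, 0.75 ± 0.40 (adjusted p = 0.344). A dimmer Zbp1 probe was at 0.31 ± 0.57 at 9 months and 0.47 ± 0.57 at 3 months, neither called. The RNA helicases Ddx58 (RIG-I), Ifih1 (MDA5) and Dhx58 (LGP2) stood at 0.11, -0.26 and 0.46, and the double-stranded RNA-dependent kinase Eif2ak2 (PKR) at 0.13.

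The 11 antiviral effectors measured had a median of 0.082 at 9 months, with 6 values above 0 and 5 below, and 0 were called (limma). None of the 11 passed an unadjusted p under 0.05. Rsad2 (viperin), which makes a chain-terminating nucleotide, had levels of -0.47, -0.71 and 0.37 in 9-month cre lungs, -0.81, -0.26 and 2.43 in the 3-month cre group, and -1.26, -0.98 and -1.10 in controls. The value of 2.43 in 3-month cre replicate 3 lay far above the other 8 arrays, and a dimmer Rsad2 probe was also highest on that array. The fitted difference was 0.84 ± 0.73 at 9 months and 1.56 ± 0.73 at 3 months (adjusted p = 0.479 and 0.292).

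The remaining effectors ranged from -0.51 (Ifit2, an RNA-binding inhibitor of translation) to 0.37 (Ifi44, a cytoplasmic protein induced by type I interferon). Bst2 (tetherin, which holds budding virus at the cell surface) was at -0.39 ± 0.43, with 9-month cre replicate 2 at 1.80 where the other 8 arrays ran from 3.17 to 3.76. Ifit1 and Ifit3, relatives of Ifit2, were at 0.16 and -0.37, and the nuclease Isg20 at -0.15.

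Genes of ISG15 conjugation and ADP-ribosylation numbered 5, all with values above 0 at 9 months and none called. Isg15, a ubiquitin-like protein joined to other proteins, had levels of 2.36, 1.51 and 3.23 in 9-month cre lungs, 2.09, 2.58 and 2.64 in the 3-month cre group, and 1.65, 1.86 and 1.82 in controls. The 9-month cre arrays spread over both sides of the controls, whereas all 3-month cre arrays were above them. The difference was 0.59 ± 0.38 at 9 months (adjusted p = 0.333) and, after 3 months, 0.67 ± 0.38 (adjusted p = 0.372). Usp18, the protease that removes ISG15 and restrains the type I receptor, stood at 0.54 ± 0.15 at 9 months (adjusted p = 0.0643) and, after 3 months, 0.49 ± 0.15 (adjusted p = 0.149). With the deposited normalised values the 9-month value was 0.55 and was called (adjusted p = 0.0424). Parp9 and Dtx3l, which act as a pair, and Parp14, an ADP-ribosyltransferase, were at 0.25, 0.17 and 0.22.

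The 5 interferon-inducible GTPases, which act on the membranes around intracellular pathogens, had a median of -0.07 at 9 months, with 2 values above 0 and 3 below. Irgm1 had levels of 1.82, 1.82 and 2.89 in 9-month cre lungs, 2.06, 2.45 and 2.28 in the 3-month cre group, and 1.80, 2.01 and 1.65 in controls. The 9-month cre and control arrays overlapped, and the 3-month cre arrays lay above all controls. Its fitted difference of 0.36 ± 0.28 was not called (adjusted p = 0.433), nor were those of Gbp2 (-0.17), Gbp3 (-0.30), Igtp (0.22) and Iigp1 (-0.07). Dimmer Irgm1 probes were at 0.10 ± 0.33 and -0.05 ± 0.27, neither called.

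Antigen processing was represented by 3 genes. Tap1, a subunit of the transporter that loads peptides into the endoplasmic reticulum, had levels of 2.46, 1.87 and 3.31 in 9-month cre lungs, 2.03, 2.36 and 2.24 in the 3-month cre group, and 2.30, 2.09 and 1.74 in controls. These groups overlapped, and the difference was 0.50 ± 0.33 (adjusted p = 0.345). A dimmer Tap1 probe, well above background on all 9 arrays, had the opposite sign at -0.49 ± 0.39 and was not called. The immunoproteasome subunits Psmb8 and Psmb9 were at 0.15 ± 0.26 and 0.28 ± 0.28, and without 9-month cre replicate 3 both turned negative, at -0.20 ± 0.11 and -0.07 ± 0.16, with neither called.

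**Figure D3:**
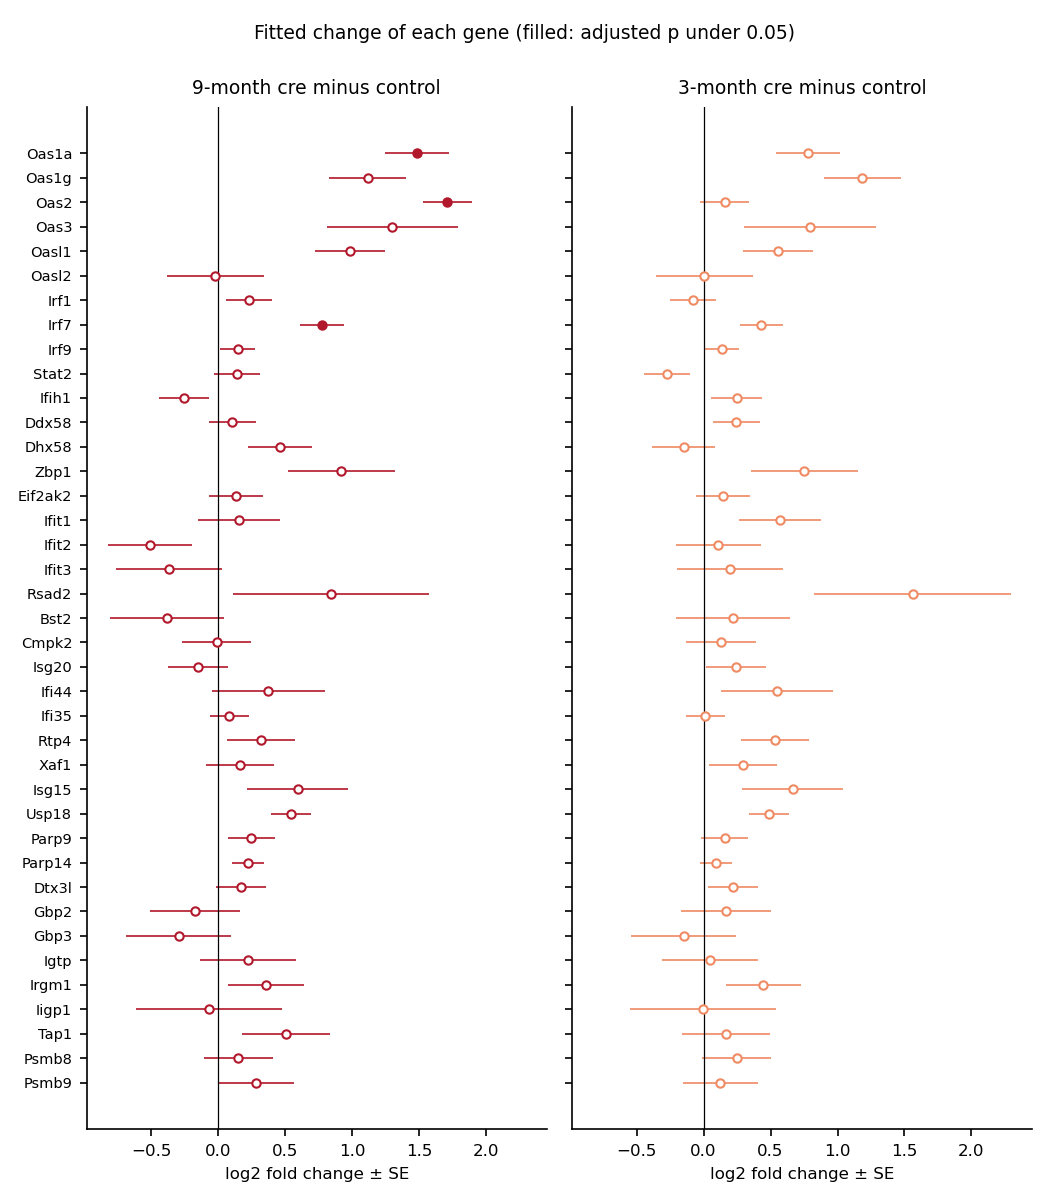
Fitted log2 fold change with its SE for the 39 genes, for 9-month cre minus control (left) and 3-month cre minus control (right). Filled points have an adjusted p under 0.05: Oas1a, Oas2 and Irf7 are filled on the left and no gene is filled on the right.

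After 3 months of tamoxifen 0 of the 39 genes were called against controls (limma), in a comparison that called 0.451% of all genes (0.368% higher and 0.0831% lower). At an unadjusted p under 0.05, 4 of the 39 were higher (Oas1a, Oas1g, Irf7 and Usp18) and 0 lower, against 11.6% and 7.09% of all genes. The median was 0.22, beside 0.054 over all genes tested. Of the 39 values 34 were above 0, as were 57.6% over all genes, and in 13 of the 39 every 3-month cre array was above every control (19.6% of all genes). All 11 effectors measured and all 6 OAS members were above 0. Oas3 and Oas1g are among those 6, and Oas1g is also among the 4 and the 13. These counts may thus partly follow from the dim-probe filter. These cre mice were 5 months old and the controls 11 months old, so the effect of the genotype and that of age cannot be told apart in this comparison, which also shares its controls with the previous one. The cre groups differ in age as well as in the length of tamoxifen treatment.

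Between the cre groups Oas2 alone of the 39 genes was called, where 4.99% of all genes were called (1.79% higher). At an unadjusted p under 0.05, 4 of the 39 were higher (12.7% of all genes) and 1 lower (16% of all genes). The median was -0.048, beside -0.028 over all genes tested, with 17 values above 0 (46.9% of all genes) and 22 below. The effectors lay mostly below 0, with 10 of 11 values negative and a median of -0.39. Stat2 was at 0.41 ± 0.17 (adjusted p = 0.158), Dhx58 at 0.61 ± 0.24 (adjusted p = 0.136) and Ifih1 at -0.50 ± 0.19 (adjusted p = 0.128).

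The mice of the 9-month cre group differed among themselves more than those of the other groups. The median SD of the 39 genes was 0.50 in 9-month cre lungs, 0.20 in 3-month cre lungs and 0.17 in controls, beside 0.22, 0.15 and 0.16 over all genes. Replicate 3 was the highest of the 3 arrays of its group for 33 of the 39 genes, against 36% of all genes, and it was above the control mean for 38 of the 39, where replicates 1 and 2 were above it for 23 and 15. By role, the GTPases minus the control mean had medians of -0.60, -0.64 and 0.96 on 9-month cre arrays 1, 2 and 3, and the antigen-processing genes had 0.03, -0.17 and 0.99.

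The widest gap was that of Iigp1, a GTPase of the IRG family strongly induced by interferon gamma. Its levels were 2.10, 1.93 and 4.29 in 9-month cre lungs, 2.81, 2.83 and 2.88 in the 3-month cre group, and 3.01, 3.05 and 2.48 in controls, so that replicates 1 and 2 lay below the other groups and replicate 3 above them. Gbp2, a guanylate-binding protein that attacks pathogen vacuoles, showed the same order, with 2.54, 2.51 and 3.86 in 9-month cre lungs, 3.29, 3.41 and 3.22 in the 3-month cre group, and 3.104, 3.41 and 2.91 in controls. Psmb8 had 2.46, 2.51 and 3.52 in 9-month cre lungs, 2.95, 3.04 and 2.80 in the 3-month cre group, and 2.71, 2.74 and 2.60 in controls.

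Of 133 other genes of the interferon pathway that were tested, 101 were highest of the 3 9-month cre arrays on replicate 3, against 36% of all genes. The 3 described next were singled out after their values were seen and do not stand for the whole interferon gamma response: Ciita, which controls MHC class II genes and is induced by interferon gamma, was at 2.599 on that array and at 2.72 on control replicate 1. Ifng, the gene for interferon gamma, had levels of -3.52, -3.71 and -1.32 in 9-month cre lungs, -3.64, -3.87 and -3.16 in the 3-month cre group, and -3.34, -3.01 and -3.68 in controls. Cxcl10, a chemokine that draws T cells and is induced by interferon gamma, had -0.25, -0.76 and 2.60 in 9-month cre lungs, 0.08, -0.49 and 0.32 in the 3-month cre group, and -0.85, -0.39 and -2.19 in controls. Both genes were highest on 9-month cre replicate 3 by a wide margin, as was Cxcl9 (0.92 on that array).

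**Figure D4:**
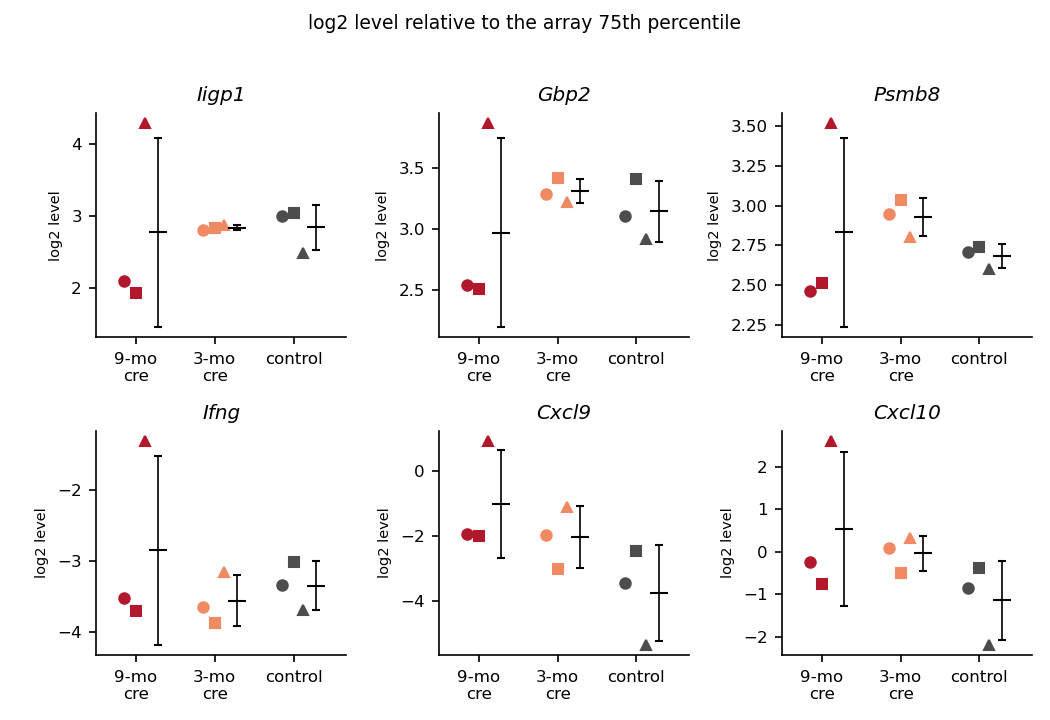
Log2 level relative to the array 75th percentile of Iigp1, Gbp2, Psmb8, Ifng, Cxcl9 and Cxcl10 in 9-month cre, 3-month cre and control lungs, from left to right, with replicates 1, 2 and 3 as circles, squares and triangles and bars for mean and SD (n = 3). In all 6 panels 9-month cre replicate 3 (Ifng -1.32, Iigp1 4.29) is the highest of the 9 arrays.

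The summed linear level of 8 NK cell markers, in units of the array 75th percentile, was 2.16, 2.40 and 5.55 on the 9-month cre arrays, 4.15 to 5.21 on the 3-month cre arrays and 5.32 to 7.42 on the controls, with 7 of the 8 well above background on all arrays. That of the 9 T cell markers with a probe was 18.4, 17.5 and 21.1 on the 9-month cre arrays, 23.6 to 24.6 on the 3-month cre arrays and 14.1 to 20.2 on the controls. The 10 neutrophil markers with a probe summed to 390, 377 and 122 on the 9-month cre arrays, 158 to 227 on the 3-month cre arrays and 105 to 205 on the controls. The neutrophil sum leans on S100a9, which made up 202, 195 and 37.7 of it on the 9-month cre arrays. On the controls S100a9 made up 40.3, 14.6 and 100. Within its group replicate 3 had the highest value for 6 of the 8 NK cell markers and 7 of the 9 T cell markers, and the lowest for 9 of the 10 neutrophil markers. Other cell types differed too. It was highest for 9 of 12 monocyte and macrophage, 7 of 11 plasmacytoid dendritic cell, 4 of 5 endothelial, 3 of 5 fibroblast and 2 of 6 B cell markers. It was lowest for 7 of 8 lung epithelial markers. Of all genes 36% were highest on that array within its group. The NK sum leans on Gzma, the gene for granzyme A, which made up 1.17, 1.53 and 3.31 of it on the 9-month cre arrays and 5.66, 5.49 and 4.03 on the controls. Klrb1c, an NK cell receptor, was lowest of its group on replicate 3, with -2.94, -2.85 and -3.19 on the 9-month cre arrays and -1.45, -1.67 and -1.85 on the controls. Of the 8 NK markers 4 fell at 9 months against controls (Gzma, Klrb1c, Klre1 and Ncr1) and 0 rose. Of all genes 2.81% were called lower and 3.65% higher. Ncr1 was well above background on all 3 controls, 2 of the 3-month cre arrays and 1 of the 9-month cre arrays. It was tested only because of the group where it is brighter, so its fall is not taken as a result. The part of these cells in the result was not tested, and in whole-lung RNA fewer cells of a type cannot be told apart from less RNA per cell.

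Without 9-month cre replicate 3, 2 genes were higher than controls, Oas2 by 1.53 ± 0.15 (adjusted p = 0.00898) and Oas1a by 1.22 ± 0.17 (adjusted p = 0.0167). In the same comparison 2 were lower, Iigp1 at -0.83 ± 0.18 (adjusted p = 0.0416) and Ifit2 at -0.89 ± 0.21 (adjusted p = 0.0492), where 3.84% of all genes were called higher and 2.74% lower. Irf7 was then at 0.66 and not called (adjusted p = 0.0539), and the median of the 39 was 0.037. Against 3-month cre lungs, Oas2 was called higher (1.37), and Iigp1 (-0.82), Gbp2 (-0.78) and Ifit2 (-0.999) were called lower, where 3.98% of all genes were lower, and the median was -0.33. In that fit Oas1g (adjusted p = 0.0476) and Zbp1 (adjusted p = 0.0406) were called higher in 3-month cre lungs than in controls, where 1.42% of all genes were higher. Oas1g was kept only through the cre groups, where it is brighter, so its call is not taken as a result. By role, the 9-month median against controls kept its sign for the OAS family (1.21 with replicate 3 and 1.12 without it), the transcription factors (0.19 and 0.13), the genes of ISG15 conjugation and ADP-ribosylation (0.25 and 0.13) and the GTPases (-0.07 and -0.62). It turned negative without that array for the sensors (0.13 with it and -0.09 without it), the effectors (0.082 and -0.16) and the antigen-processing genes (0.28 and -0.07). The OAS medians include Oas3 and Oas1g, which were kept only through the cre groups.

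The calls of the 3 genes that rose did not stand equally firm. Against controls Oas2 was called with any 1 of the 9 arrays left out, with values from 1.53 to 1.89. The call of Oas1a was lost without 9-month cre replicate 1 (1.53, adjusted p = 0.0502), control replicate 2 (1.46, adjusted p = 0.0637) or control replicate 3 (1.46, adjusted p = 0.0526). The call of Irf7 was lost without any 1 of 6 arrays, all 3 controls, 9-month cre replicates 1 and 3 and 3-month cre replicate 3, with values from 0.66 to 0.82. Against 3-month cre lungs the call of Oas2 was lost without 3-month cre replicate 1 (1.48, adjusted p = 0.0925) or replicate 2 (1.66, adjusted p = 0.075).

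Neither slide held both 9-month cre and control arrays, so no within-slide value exists for that comparison. With the slide as a block, which links these groups only through the 3-month cre arrays, none of the 39 genes was called (limma) and 3 were higher at an unadjusted p under 0.05. Oas2 was then at 1.48 (adjusted p = 0.936), Oas1a at 1.20 (adjusted p = 0.977) and Irf7 at 0.33 (adjusted p = 0.985), beside 0 calls among all genes. Within slide 2 Oas2 was higher in 9-month than in 3-month cre lungs by 1.48 (adjusted p = 0.168), and within slide 1 Oas2 differed by 0.0011 and Oas1a by 0.59 between 3-month cre replicate 1 and the controls. With animal sex as a covariate, which also left 0 calls among all genes, Oas2 was at 1.81 (adjusted p = 0.052), Oas1a at 1.57 (adjusted p = 0.0711) and Irf7 at 0.85 (adjusted p = 0.0916).

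Upstream of these genes, 0 of the 9 interferon genes tested were called in any comparison, while at an unadjusted p under 0.05 3 of them were higher at 9 months against controls (14.8% of all genes), 1 was higher at 3 months against controls (11.6%) and 2 were higher in 9-month than in 3-month cre lungs (12.7%). The type I interferons Ifna2 and Ifna11 were well above background on all 9-month cre arrays, 1 of the 3-month cre arrays and 0 of the controls, so they were tested only because of the group where they are brighter, and no fold is given for them. Both are among the 9 genes, so the counts of higher genes at 9 months may partly follow from the filter. Those counts are therefore not read against the shares over all genes. Ifng stood at 0.50 ± 0.57 in 9-month cre lungs against controls (adjusted p = 0.597). Of the 6 receptor subunits 0 were called against controls, and Ifngr1, the ligand-binding chain for interferon gamma, rose by 0.64 ± 0.10 in 9-month relative to 3-month cre lungs (adjusted p = 0.0276). The type I receptor chains Ifnar1 and Ifnar2 were at -0.21 and -0.15 against controls at 9 months.

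Of 10 signalling genes 2 rose at 9 months against controls and 0 fell, where 3.65% of all genes were called higher. They were Socs3, a feedback inhibitor of cytokine receptors, by 1.37 ± 0.27 (adjusted p = 0.0283), and Ptpn6, the phosphatase SHP-1 of blood cells, by 0.82 ± 0.18 (adjusted p = 0.0404). Of 21 genes that sense nucleic acid or induce interferon, 11 were higher and 0 lower at an unadjusted p under 0.05 (limma). The shares of all genes were 14.8% and 12.5%. The median of the 21 was 0.29, beside 0.024 over all genes tested. At the adjusted threshold 1 of the 21 rose, close to the share among all genes. This was Tlr7, an endosomal receptor for single-stranded RNA, with levels of 0.42, 0.18 and 0.70 in 9-month cre lungs, -0.30, 0.20 and 0.77 in the 3-month cre group, and -1.004, -1.06 and -1.16 in controls. Both cre groups were above the controls and overlapped each other, and the difference was 1.51 ± 0.25 at 9 months (adjusted p = 0.0199) and, after 3 months, 1.30 ± 0.25 (adjusted p = 0.0788).

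Among 87 further interferon-inducible genes tested, 9 rose at 9 months against controls and 0 fell, where 3.65% of all genes were called higher and 2.81% lower. The list median was 0.20, beside 0.024 over all genes tested. Those with the largest changes were Ms4a6c, a membrane protein of monocytes, by 2.04 ± 0.38, Oas1f, another member of the Oas1 cluster, by 1.62 ± 0.26, and Ifi205 and Ifi204, DNA-binding proteins of the PYHIN family, by 1.45 ± 0.31 and 1.40 ± 0.20 (adjusted p = 0.0245, 0.0182, 0.0343 and 0.0144). Oas1f had levels of 1.63, 1.34 and 2.29 in 9-month cre lungs, 0.61, 1.34 and 0.99 in the 3-month cre group, and 0.23, 0.08 and 0.09 in controls. As for Oas1a, all cre arrays were above all controls. At 3 months 0 of the 87 were called (limma). At an unadjusted p under 0.05, 5 were higher and 2 lower, against 11.6% and 7.09% of all genes. In 9-month relative to 3-month cre lungs 3 of the 87 rose (1.79% of all genes), among them Ifi204 by 0.98 ± 0.20 (adjusted p = 0.0393). Ifi27l2b is counted among the 9 and among the 3. It was well above background on all 3 9-month cre arrays, 1 of the 3-month cre arrays and 2 of the controls. It was tested only because of the group where it is brighter, and no fold is given for it. Without 9-month cre replicate 1 the calls of Socs3 (1.27), Ptpn6 (0.85), Tlr7 (1.51), Ms4a6c (2.23), Oas1f (1.68) and Ifi205 (1.32) against controls were lost, at adjusted p of 0.0502 (Oas1f) to 0.0991 (Ifi205), and other single arrays also ended them, whereas Ifi204 was called with any 1 array left out. Without 3-month cre replicate 1 the calls of Ifngr1 (adjusted p = 0.112) and Ifi204 (adjusted p = 0.130) between the cre groups were lost.

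Markers of monocytes and macrophages were higher together with these genes. The lists overlap in part. Fcgr1 is both a monocyte and macrophage marker and 1 of the 87 further genes. Bst2 is both a plasmacytoid marker and 1 of the 39 interferon-stimulated genes. The 12 markers, all well above background on all 9 arrays, summed to 274 to 282 on the 9-month cre arrays, 179 to 220 on the 3-month cre arrays and 175 to 192 on the controls. The 11 markers of plasmacytoid dendritic cells, a main source of type I interferon, summed to 148 to 159 on the 9-month cre arrays. They summed to 90.9, 143 and 157 on 3-month cre replicates 1, 2 and 3 and to 94.6 to 110 on the controls. Replicate 1 of the 3-month cre group shared slide 1 with the controls, so every array of slide 2 lay above every array of slide 1. For this sum slide and group cannot be told apart. Of the 12 monocyte and macrophage markers all had values above 0 at 9 months against controls and 2 rose, with a median of 0.83. Of all genes 52.8% had values above 0 and 3.65% were called higher. The plasmacytoid sum leans on Siglech, a surface receptor of these cells, which made up 83.0, 80.1 and 71.3 of it on the 9-month cre arrays and 45.6, 31.5 and 27.5 on the controls. On 3-month cre replicates 1, 2 and 3 Siglech made up 28.5, 63.2 and 80.6, so it divided by slide in the same way. Over the 11 plasmacytoid markers 0 were called at 9 months against controls (limma), 4 were higher and 0 lower at an unadjusted p under 0.05, and the median was 0.067, beside 0.024 over all genes. At that unadjusted threshold 14.8% of all genes were higher and 12.5% lower. Ccr9, Cox6a2, Spib and Bst2 had values below 0. The part of these cells in the rise of Oas2, Oas1a and Irf7 was not tested.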

How the data were processed

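Spot intensity was read from the arrays with Agilent Feature Extraction 10.7.3.1, per the file headers. The processed signal in these deposited files already has background subtracted, and 0 or 1 flags, deposited with it, mark spots well above background. A second set of normalised intensity values was deposited by the authors, with array medians of 163.3 to 164.1 and no method given in the sources used here, and served as an alternative. Of 62976 spots per array 59305 were non-control. Irregular spots were left out, spots of a probe were averaged, and probes well above background on all arrays of at least 1 group were kept (37647 of 56605). Transcripts were matched to symbols in RefSeq annotation of GRCm38.p6, which named 32994 probes.

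Levels were fitted with limma 3.58.1 in R 4.3.3 (data.table package, version 1.17.8), with group means only, 6 residual degrees of freedom and two-sided moderated tests. Errors are SEs with 3 arrays per group, and that number limits the precision. For each gene they use 1 spread pooled over all 9 arrays. A wide spread in the 9-month cre group therefore also widens the errors of the 3-month comparison. For Zbp1 the SE at 3 months was 0.40, and 0.12 without 9-month cre replicate 3. The fit was tested on simulated data with the same spread in all groups. For 9-month cre against control it recovered 51 of 100 genes changed by 1 on the log2 scale and 89 of 100 changed by 2. For 3-month cre against control it recovered 64 and 90 of 100. A gene that was not called is therefore not shown to be unchanged. Named are the members called, the uncalled member of each role with the largest change at 9 months, and up to 4 called genes of each other pathway list. Members and gene lists were chosen with earlier results of these data known, and Zbp1, Oas1g, Oasl1, Usp18, Iigp1, Gbp2, the single cell-type markers and the genes set beside 9-month cre replicate 3 were singled out after their values were seen. Replicate numbers did not pair the arrays (9 pairs, r = -0.24 to 0.045). Alternatives covered background correction, normalisation, scaling, the dim-probe filter, the probe summary, slide, sex, the replicate number and each array left out.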

Additional observations from a re-analysis of the deposited data

Results flagged for a closer look

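For Oas2 the effect after 9 months and the effect after 3 months, each against the shared controls, differed by 1.55 on the log2 scale in the test of the difference itself (limma, adjusted p = 0.0179). The 3 arrays after 9 months were at 3.28, 2.93 and 3.64, those after 3 months at 1.58, 1.94 and 1.68. All 3 of the first were above all 3 of the second, and age differs between these groups together with the length of treatment.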

How the results depend on the processing

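For 9-month cre against control, where 3 interferon-stimulated genes were called, 5 were called with normexp background correction and 5 with the deposited values (Oasl1 and Usp18 were added), 1 with only the compared groups in the fit, 0 with the slide as a block and 0 with animal sex as a covariate (3 and 6 higher at an unadjusted p under 0.05). For 3-month cre against control 3 were called with only the compared groups (Oas1a, Oas1g and Zbp1). The call of Oas1g, kept only through the cre groups, is not taken as a result. For 9-month against 3-month cre, where 1 was called, 0 were called with the slide as a block and 0 on slide 2 alone (1 and 2 higher at an unadjusted p under 0.05). Leaving out 1 array at a time gave 1 to 4 calls and medians of 0.037 to 0.35 for 9-month cre against control, 0 to 2 calls and medians of 0.13 to 0.30 for 3-month cre against control, and 0 to 4 calls and medians of -0.33 to 0.12 for 9-month against 3-month cre. No called gene changed sign under the alternatives run. With the replicate number as a block, 2 members were called for 9-month cre against control (Irf7 lost, adjusted p = 0.0625), 0 for 3-month cre against control and 0 for 9-month against 3-month cre (Oas2 lost, 1.55, adjusted p = 0.0627). The cause of these losses was not tested.

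Over all genes the 1087 calls of 9-month cre against control became 489 without the dim-probe filter, 185 with only the compared groups, 317 with the replicate block, and 0 with slide or sex in the fit (837 and 3711 at an unadjusted p under 0.05). The 76 calls of 3-month cre against control became 49 with normexp, 43 with deposited values, 14 without the filter, 45 with probes above background on all arrays, 389 with only the compared groups, 42 with the replicate block, 4 on slide 1, and 0 with slide or sex (1144 and 2191). The 840 calls of 9-month against 3-month cre became 427 with median scaling, 104 without the filter, 335 with only the compared groups, 234 with sex, 6 with the replicate block, and 0 with slide or on slide 2 alone (3589 and 2975). Leaving out 1 array gave 158 to 1638, 1 to 322 and 0 to 1224 calls in the same order. Signal near background limits Oas3, Oas1g, Ifna2, Ifna11, Ifi27l2b and Ncr1.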

Other observations

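A dimmer Xaf1 probe, for a factor that promotes cell death, was at 1.68 in control replicate 1 where the other 8 arrays ran from -3.92 to -3.14, while the brighter Xaf1 probe was at 0.91 on that array and at 0.91 to 1.86 over all 9. A dimmer Parp9 probe was higher in 9-month than in 3-month cre lungs by 0.98 ± 0.24 (limma, adjusted p = 0.0487 over all probes tested), where the brighter probe differed by 0.09, and it was well above background on 3 of the 9 arrays. These probes were singled out after their values were seen.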
